A study of Mus musculus with 17 samples.

Results

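Nucleotide excision repair and translesion DNA synthesis were followed through 10 genes in the forestomach of mice given benzo(a)pyrene, a carcinogen of smoke and charred food whose activated form binds to guanine as a bulky adduct. The genes were the damage recognition factors Xpc and Ddb2, the damage-binding scaffold Xpa, the TFIIH helicases Ercc2 and Ercc3, the incision factors Ercc1 and Ercc5, and the bypass polymerases Polk, Polh and Rev1. They were taken from the array by the RefSeq transcript that the scanner tables give for each probe, which found 12 of 55681 probes for the 10 genes. All 10 genes had a probe that passed the filter on dim spots, and they stood among 21384 genes tested. Of these entries 13855 had a RefSeq symbol, and the rest had only the name given in the scanner tables. Shares and medians of all genes below cover both kinds. None of the 10 passed the test against control animals at 25, 50 or 75 mg/kg per day.

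The animals were male MutaTMMouse mice, a transgenic strain that carries a reporter gene for scoring mutations, aged 24 to 26 weeks and housed singly. The control group (5 mice, replicates 1 to 5) was given olive oil by gavage every day for 28 days. The groups at 25 mg/kg (4 mice, replicates 6 to 9), 50 mg/kg (4 mice, replicates 12 to 15) and 75 mg/kg (4 mice, replicates 17 to 20) had the compound dissolved in that oil on the same schedule, and every forestomach was taken 72 hours after the last dose. Each of the 17 arrays held RNA from 1 animal in the Cy5 channel and a common reference RNA from 11 mouse cell lines in the Cy3 channel, with no dye swap. Samples of a group are biological replicates per the study's design text, and the array-to-array spread therefore contains animal-to-animal spread. The values below are log2 ratios of Cy5 over Cy3 after background correction and normalization within each array. A value of 0 means that the forestomach and the reference gave equal signal after these steps, and a ratio of 1 gene is not set against that of another.

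Nucleotide excision repair removes bulky lesions as a short single-stranded piece: XPC and the DDB complex find the distorted helix, TFIIH opens it with its XPB and XPD subunits, XPA helps to verify the damage, and XPG and ERCC1-XPF cut on either side before the gap is filled. Where a lesion is still present when a replication fork arrives, translesion polymerases of the Y family can insert a base opposite it. Polymerase kappa bypasses minor-groove guanine adducts such as that of benzo(a)pyrene with few errors, polymerase eta is best known for bypass of ultraviolet dimers, and REV1 inserts cytosine and serves as a platform for the other polymerases. The forestomach, lined by keratinising squamous epithelium, is a target organ of this compound in rodents.

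The arrays were of similar quality, with 39.9% to 50.7% of probes well above background in Cy5 and median Cy5 signals of 75.5 to 96 beside median local backgrounds of 64 to 74.5. The number of arrays, 4 or 5 in a group, limits the precision. The arrays came from 3 slides, and each slide held arrays of all 4 groups, so each difference was also computed within slides. Squamous markers were far above the reference in every group: the mean log2 ratio of 6 suprabasal markers was 5.08 to 5.85 at 75 mg/kg, against 5.29 to 5.78 in control. None of the marker lists examined had a gene past the threshold at 75 mg/kg. In the basal, suprabasal and smooth muscle lists 1 gene each had an unadjusted p under it, where 10.1% of all genes did. The 6 smooth muscle markers had a median log2 difference of -0.44 at 75 mg/kg and their mean ratio spanned 4.45 to 5.20 there, against 4.82 to 5.54 in control. The mean ratio of 7 glandular stomach markers spanned 0.22 to 1.87 in control, 0.63 to 5.77 at 25 mg/kg, 1.01 to 1.95 at 50 mg/kg and 0.55 to 3.11 at 75 mg/kg. At 25 mg/kg the differences of these 7 markers were all above 0, with a median of 1.85. Of the 7, 2 had an unadjusted p under the threshold and 0 passed after adjustment, where 3.26% and 0.014% of all genes did. The mean ratio of 5 adipocyte markers spanned 1.31 to 3.47 in control, 1.603 to 4.502 at 25 mg/kg, 1.26 to 2.73 at 50 mg/kg and 1.28 to 2.66 at 75 mg/kg. The part of cell composition in the values below was not tested. RNA was extracted from random sections of the forestomach, so fewer cells of a type and less RNA per cell cannot be told apart.

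At 25 mg/kg 0 of the 10 genes passed limma's test with Benjamini-Hochberg adjustment over all genes at a threshold of 0.05, where 0.014% of all genes did. At 50 mg/kg 0 of 10 passed, with 0.0468% of all genes, and at 75 mg/kg 0 of 10 passed, with 1.1% of all genes (236 of 21384). The slope on dose, fitted over all 17 arrays, was called for 0 of 10, with 1.35% of all genes, and the direct comparison of 75 with 25 mg/kg called 0 of 10, with 0.0608% of all genes. Before adjustment, 0 of the 10 had a p under the same threshold at 25, 50 and 75 mg/kg and for the slope, where 3.26%, 6.81%, 10.1% and 11.4% of all genes did. The slope of Rev1 came nearest, with an unadjusted p that rounds to 0.05. For none of the 10 were the values at any dose separated from those in control without overlap. Of all genes 0.557% lay wholly above control and 0.431% wholly below at 25 mg/kg. These shares were 1.22% and 0.988% at 50 mg/kg, and 1.99% and 1.31% at 75 mg/kg.

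The 10 log2 differences at 75 mg/kg ran between -0.12 for Ddb2 and 0.18 for Rev1, with 7 above 0 and 3 below. Their median was 0.04, beside -0.01 for all genes, and their median size regardless of sign was 0.0647, beside 0.113 for all genes. The median standard error of the 10 was 0.117 and that of all genes 0.131, both on the scale with an offset of 50. In terms of fold, the 95% intervals at 75 mg/kg ended at 0.758 on the low side, for Ercc2, and at 1.32 on the high side, for Rev1. On this scale, a fold beyond either bound lay outside the 95% interval of each of the 10 genes at 75 mg/kg. The bounds do not carry over to other scales for dim probes. From Agilent's processed signals, read below, the log2 interval for Polh was -0.39 to 0.66, against -0.20 to 0.25 here. For Polk it was 0.14 to 0.90, against -0.14 to 0.34. For the brighter Ercc2 probe it was -0.34 to 0.26, against -0.40 to 0.28. With the arrays only centred on their medians, in place of loess, the median of all genes at 75 mg/kg itself moved to 0.19 and that of the 10 genes to 0.25. Of the genes called under that centring 142 of 145 were higher at 75 mg/kg than in control (97.9%), against 191 of 236 with loess (80.9%), and 0 of the 10 repair and bypass genes passed under either.

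**Figure D1:**
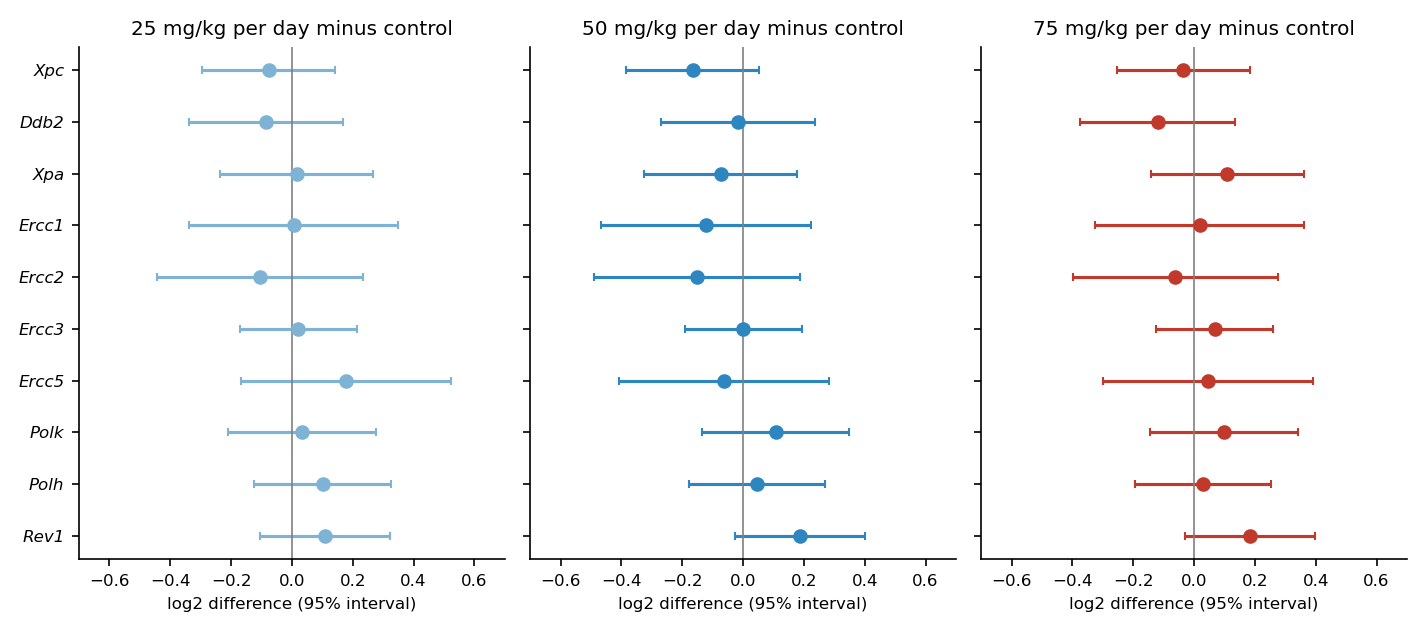
Log2 difference of each dose from control for the 10 genes, with the point at the fitted difference and the bar spanning its 95% interval (limma, all 17 arrays; control n = 5, each dose n = 4). Every bar crosses 0, and the widest reach is that of Ercc5 at 25 mg/kg, whose bar ends at 0.52.

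Xpc makes the protein that recognises helix distortion throughout the genome. On the control arrays its log2 ratios were -0.06, 0.26, 0.19, 0.19 and 0.22. They were 0.05, 0.14, -0.14 and 0.28 at 25 mg/kg, -0.03, -0.14, -0.03 and 0.18 at 50 mg/kg, and 0.19, -0.02, 0.27 and 0.06 at 75 mg/kg. Control replicate 1 lay apart below the other 4 controls, and the ranges of all doses overlapped that of control. For Xpc the log2 difference at 75 mg/kg was -0.04 ± 0.10 (standard error of the fit), with a 95% interval of -0.26 to 0.18 and an adjusted p of 0.941. At 50 mg/kg it was -0.17 ± 0.10, adjusted p = 0.817, the most negative value of the 10 genes at that dose, and leaving out 1 array at a time moved it between -0.23 and -0.12. Within slides 1, 2 and 3 the Xpc difference at 75 mg/kg was 0.10, -0.07 and -0.17.

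Ddb2 encodes the damage-binding subunit of the complex that also holds DDB1 and a CUL4 ubiquitin ligase. In human cells DDB2 is a p53 target, while the mouse gene is known not to respond to p53 in the same way. Its log2 ratios were -1.36, -0.95, -1.28, -0.92 and -1.13 in control. They were -1.22, -1.10, -1.49 and -1.04 at 25 mg/kg, -1.15, -1.15, -1.17 and -1.10 at 50 mg/kg, and -1.07, -1.54, -1.12 and -1.26 at 75 mg/kg. The normalized forestomach signal was thus below that of the cell-line reference on all 17 arrays. The arrays at 50 mg/kg were the closest together, with an SD of 0.03, against 0.20 in control, and all 4 lay inside the control range. Replicate 18, at 75 mg/kg, had the lowest value. For Ddb2 the difference at 75 mg/kg was -0.12 ± 0.12, with a 95% interval of -0.37 to 0.13 and an adjusted p of 0.803, and it was 0.09, -0.23 and -0.13 within the 3 slides.

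Xpa, the scaffold that binds damaged DNA and gathers the other factors, was read by 2 probes that gave opposite signs at 50 and 75 mg/kg and the same sign at 25 mg/kg. The brighter probe, A_66_P100657, had log2 ratios of 0.50, 0.48, 0.38, 0.75 and 0.90 in control. It had 0.54, 0.75, 0.47 and 0.71 at 25 mg/kg, 0.41, 0.58, 0.35 and 0.76 at 50 mg/kg, and 0.73, 0.55, 0.71 and 0.85 at 75 mg/kg. All values at 75 mg/kg lay within the control range, and the log2 difference was 0.11 ± 0.12, with a 95% interval of -0.14 to 0.36 and an adjusted p of 0.818. Within the 3 slides it was 0.24, 0.06 and -0.05. The dimmer probe, A_55_P1967867, had 0.78, 0.56, 0.49, 0.46 and 0.53 in control, 0.69, 0.67, 0.67 and 0.67 at 25 mg/kg, 0.75, 0.54, 0.51 and 0.71 at 50 mg/kg, and 0.12, 0.49, 0.44 and 0.61 at 75 mg/kg. Replicate 17 at 75 mg/kg was its lowest array, while the brighter probe read that same array in the upper part of its range. The log2 difference of the dimmer probe at 75 mg/kg was -0.15 ± 0.10, with an adjusted p of 0.703 over all probes. Between 75 and 25 mg/kg it was -0.26 ± 0.11, with an adjusted p of 0.953. The mean of both Xpa probes gave -0.02 at 75 mg/kg.

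Ercc3 (XPB) and Ercc2 (XPD) are the translocase and the helicase of TFIIH, the transcription factor that unwinds DNA around the lesion. Ercc3 had log2 ratios of -0.24, -0.27, -0.36, -0.25 and -0.04 in control. The dosed arrays gave -0.11, -0.33, -0.19 and -0.20 at 25 mg/kg, -0.20, -0.39, -0.27 and -0.07 at 50 mg/kg, and -0.07, -0.09, -0.17 and -0.32 at 75 mg/kg. Of the 10 genes this one had the smallest standard error, 0.09, and every dosed group overlapped control. Its log2 difference at 75 mg/kg was 0.07, with a 95% interval of -0.12 to 0.26 and an adjusted p of 0.863, and the values within slides were 0.18, 0.18 and -0.29.

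Ercc2 varied more between animals. Its log2 ratios were -0.75, -0.43, -0.36, -0.41 and -0.34 in control. They were -0.92, -0.41, -0.45 and -0.48 at 25 mg/kg, -0.62, -0.30, -0.71 and -0.80 at 50 mg/kg, and -1.03, -0.36, -0.50 and -0.19 at 75 mg/kg. A single array lay well below the rest in control, at 25 mg/kg and at 75 mg/kg, and the highest value of all, replicate 20, was at 75 mg/kg. The 3 low arrays (replicates 1, 6 and 17) were all on slide 1. The other slide 1 arrays, replicates 2, 7 and 12, were at -0.43, -0.41 and -0.62. At 50 mg/kg the lowest array, replicate 15, was on slide 3. The Ercc2 difference at 75 mg/kg was -0.06 ± 0.16, with a 95% interval of -0.40 to 0.28 and an adjusted p of 0.937, and it was -0.44, -0.04 and 0.15 within slides 1, 2 and 3. Without replicate 17 it was 0.11.

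Ercc1, the partner of the XPF nuclease that cuts on the 5' side of the lesion, had log2 ratios of -0.23, -0.64, -0.12, -0.01 and -0.05 in control. They were 0.17, -0.56, 0.09 and -0.50 at 25 mg/kg, -0.51, -0.36, -0.17 and -0.27 at 50 mg/kg, and -0.24, -0.02, -0.08 and -0.42 at 75 mg/kg. At 25 mg/kg 2 arrays lay above all controls and 2 lay near the lowest control, with an SD of 0.38, against 0.25 in control. The log2 difference at 75 mg/kg was 0.02 ± 0.16, with a 95% interval of -0.33 to 0.36 and an adjusted p of 0.984. It was 0.19, 0.01 and -0.37 within the slides, and at 50 mg/kg it was -0.12 ± 0.16, adjusted p = 0.920.

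Ercc5 (XPG), the nuclease of the 3' side, had log2 ratios of 0.81, 0.72, 0.53, 0.71 and 0.02 in control. They were 1.00, 0.89, 0.68 and 0.36 at 25 mg/kg, 0.52, 0.58, 0.55 and 0.33 at 50 mg/kg, and 0.93, 0.61, 0.53 and 0.34 at 75 mg/kg. In each group the lowest value was that of the array on slide 3, and the control array there was the lowest of all 17. The log2 difference at 75 mg/kg was 0.05 ± 0.16, with a 95% interval of -0.30 to 0.39 and an adjusted p of 0.954, while within slides 1, 2 and 3 it was 0.16, -0.05 and 0.32. At 25 mg/kg it was 0.18 ± 0.16, adjusted p = 0.999, and the direct comparison of 75 with 25 mg/kg gave -0.13 ± 0.17, adjusted p = 1.

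**Figure D2:**
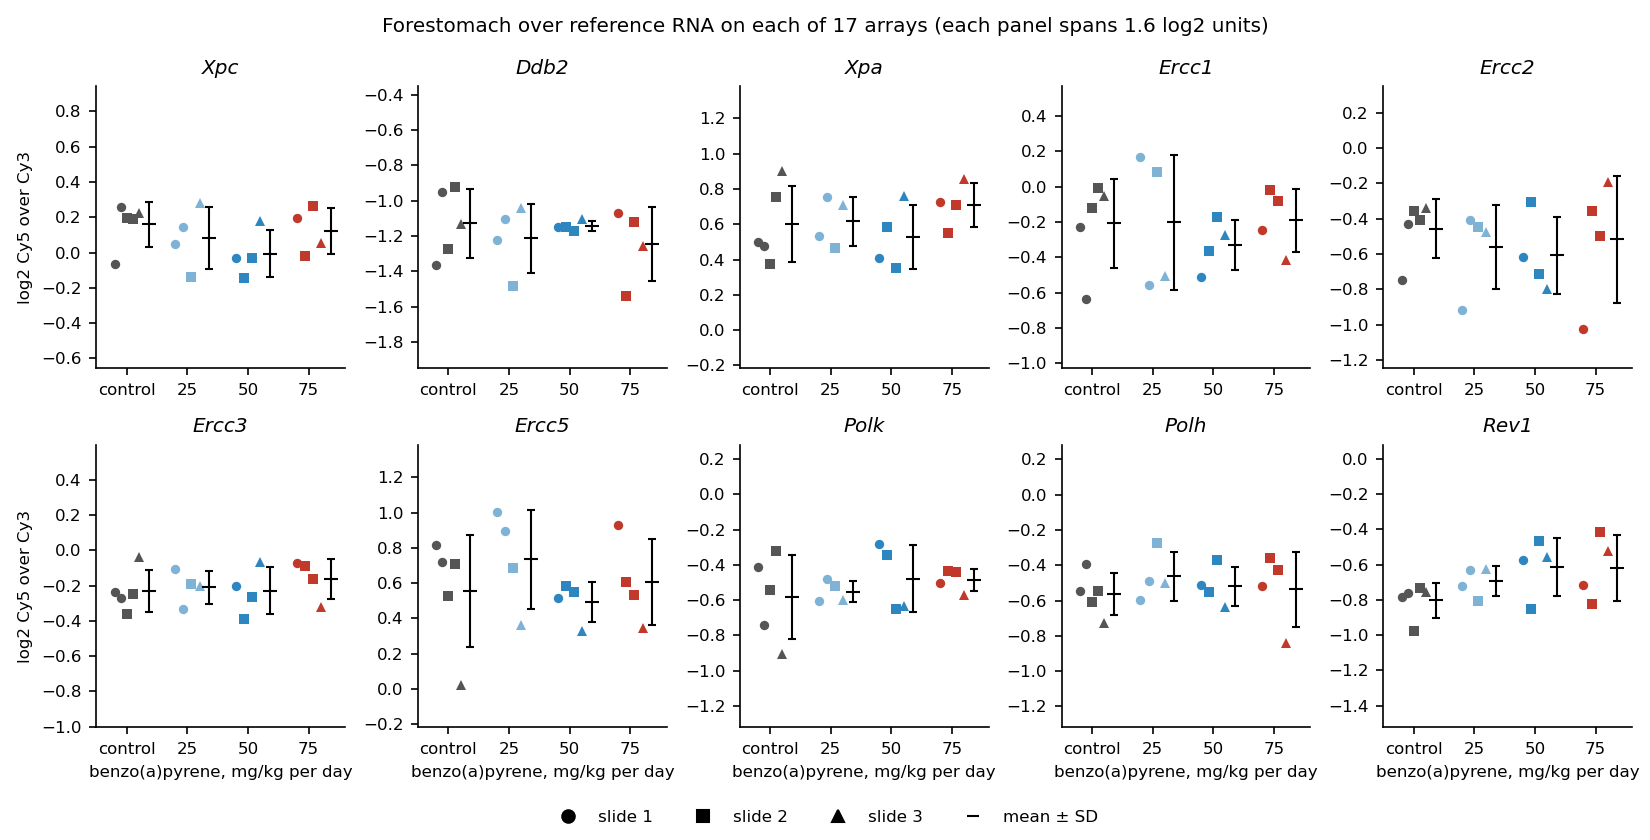
Log2 ratio of forestomach over reference RNA for each of the 10 genes on all 17 arrays, by dose in mg/kg per day, with slides marked by symbol and the mean ± SD beside the points (control n = 5, each dose n = 4). Each panel spans 1.6 log2 units around its own gene; dosed and control points overlap in all panels, and the lowest Ercc2 arrays are circles (slide 1).

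The bypass polymerases gave dim spots, which bears on their scale. Polk, polymerase kappa, was read by A_55_P2000533, well above background on all 17 arrays. Its uncorrected Cy5 spot signals were 119.5 to 170.0 at 75 mg/kg, against 103.5 to 128.0 in control. These signals are not normalized, and the median Cy5 signal of an array was 85 to 96 at 75 mg/kg, against 75.5 to 89 in control. Transcription of mouse Polk has been described as depending in part on the aryl hydrocarbon receptor (AHR), the receptor that benzo(a)pyrene binds. Its log2 ratios were -0.41, -0.74, -0.54, -0.32 and -0.90 in control. They were -0.61, -0.48, -0.52 and -0.60 at 25 mg/kg, -0.28, -0.34, -0.65 and -0.63 at 50 mg/kg, and -0.50, -0.43, -0.44 and -0.57 at 75 mg/kg. All values at 25 and 75 mg/kg lay inside the control range, and the SD was 0.06 at 75 mg/kg, against 0.24 in control. The log2 difference at 75 mg/kg was 0.10 ± 0.12, with a 95% interval of -0.14 to 0.34 and an adjusted p of 0.832, and within the slides it was 0.08, -0.0043 and 0.34. A further Polk probe, A_55_P2205690, was well above background on 2 of 17 arrays (1 at 75 mg/kg and 1 in control) and was not tested. Its mean at 75 mg/kg lay 0.16 above that of control, where the SD was 0.23. From Agilent's processed signals, read below, it lay 1.025 above, with an SD of 1.093 in control. These values are near background.

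Polh, polymerase eta, a p53 target in human cells, had the dimmest of the probes that stand for the 10 genes in the test. It was well above background on 14 of 17 arrays: 3 of 5 in control, 3 of 4 at 25 mg/kg, 4 of 4 at 50 mg/kg and 4 of 4 at 75 mg/kg. Its log2 ratios were -0.55, -0.39, -0.61, -0.54 and -0.73 in control. They were -0.59, -0.49, -0.27 and -0.50 at 25 mg/kg, -0.51, -0.55, -0.37 and -0.64 at 50 mg/kg, and -0.52, -0.36, -0.43 and -0.84 at 75 mg/kg. At 75 mg/kg both the lowest (replicate 20) and a value above all controls (replicate 18) occurred. The log2 difference there was 0.03 ± 0.11, with a 95% interval of -0.20 to 0.25 and an adjusted p of 0.956, and it was -0.05, 0.18 and -0.11 within the slides.

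Rev1 had the largest difference of the 10 genes at 50 and at 75 mg/kg. Its log2 ratios were -0.78, -0.76, -0.98, -0.73 and -0.76 in control. They were -0.72, -0.63, -0.80 and -0.62 at 25 mg/kg, -0.58, -0.85, -0.47 and -0.56 at 50 mg/kg, and -0.72, -0.82, -0.41 and -0.52 at 75 mg/kg. At each dose 3 of 4 arrays lay above all 5 controls, and the remaining array (replicates 8, 13 and 18, all on slide 2) lay below every control but replicate 3. The other dosed arrays on slide 2, replicates 14 and 19, were the highest of their groups. The log2 difference was 0.11 ± 0.10 at 25 mg/kg, adjusted p = 0.999, and 0.19 ± 0.10 at 50 mg/kg, adjusted p = 0.783. At 75 mg/kg it was 0.18 ± 0.10, with a 95% interval of -0.03 to 0.40 and an adjusted p of 0.583. The order of the means was thus control, 25, 75 and 50 mg/kg from low to high, and the ranges of neighbours in that order overlapped. The slope was 0.06 ± 0.03 per 25 mg/kg, with an adjusted p of 0.438, and 2443 of the 21384 genes ranked ahead of Rev1 in that test. Within slides 1, 2 and 3 the Rev1 difference was 0.20, 0.19 and 0.20 at 50 mg/kg and 0.05, 0.24 and 0.24 at 75 mg/kg. Leaving out 1 array at a time moved it between 0.11 and 0.25 at 75 mg/kg.

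For dim probes the offset of 50 added during background correction draws ratios towards 0 by its construction, so the polymerases were also read from Agilent's processed signals, to which no offset was added here. On that scale Rev1 had log2 ratios of -1.63, -1.54, -1.84, -1.62 and -1.24 in control. They were -1.39, -1.55, -1.25 and -1.25 at 25 mg/kg, -1.48, -1.23, -0.83 and -0.81 at 50 mg/kg, and -1.49, -1.12, -0.80 and -0.92 at 75 mg/kg. At 50 and at 75 mg/kg 3 of 4 arrays lay above all controls, and the remaining one lay inside the control range. The Rev1 difference at 75 mg/kg became 0.49, with a 95% interval of 0.13 to 0.85 and an adjusted p of 0.286. With an offset of 16 the Rev1 difference at 75 mg/kg was 0.31, with an adjusted p of 0.383.

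Polk on the processed scale had log2 ratios of -1.04, -1.93, -1.58, -1.03 and -1.52 in control. They were -1.08, -1.24, -1.17 and -1.33 at 25 mg/kg, -0.92, -1.03, -1.49 and -1.11 at 50 mg/kg, and -0.69, -1.04, -0.76 and -1.13 at 75 mg/kg. All 4 arrays at 75 mg/kg lay above the control median, 2 of them above all controls. The Polk difference at 75 mg/kg was 0.52, with a 95% interval of 0.14 to 0.90 and an adjusted p of 0.286; with an offset of 16 it was 0.16, adjusted p = 0.768. The slopes per 25 mg/kg on the processed scale were 0.16 ± 0.05 for Polk (unadjusted p = 0.00748, adjusted p = 0.203) and 0.18 ± 0.05 for Rev1 (unadjusted p = 0.00347, adjusted p = 0.14). For Polh the difference at 75 mg/kg was 0.14 on that scale, and its control arrays spread over an SD of 0.53. The sizes of the Polk and Rev1 differences therefore moved by more than 1.5 times between these scales. On either scale 0 of the 10 genes passed after adjustment. The processed signals differ in both background and normalization, and the part of each was not tested. With the offset of 50 and median centring in place of loess, Polk was 0.25 and Rev1 0.29 at 75 mg/kg. With loess but no background correction they were 0.12 and 0.18. Before adjustment 2 of the 10, Polk and Rev1, were under the threshold at 75 mg/kg on the processed scale, where 10.3% of all genes were, and 0 of the 10 with the offset of 50. At 50 mg/kg on the processed scale 1 of the 10, Rev1, was under it, with 5.75% of all genes. Rev1 alone was also under it with an offset of 16 at 50 and 75 mg/kg (7.06% and 10.2% of all genes), with median centring at 75 mg/kg (10.7%) and in the series table at 50 mg/kg (6.55%).

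**Figure D3:**
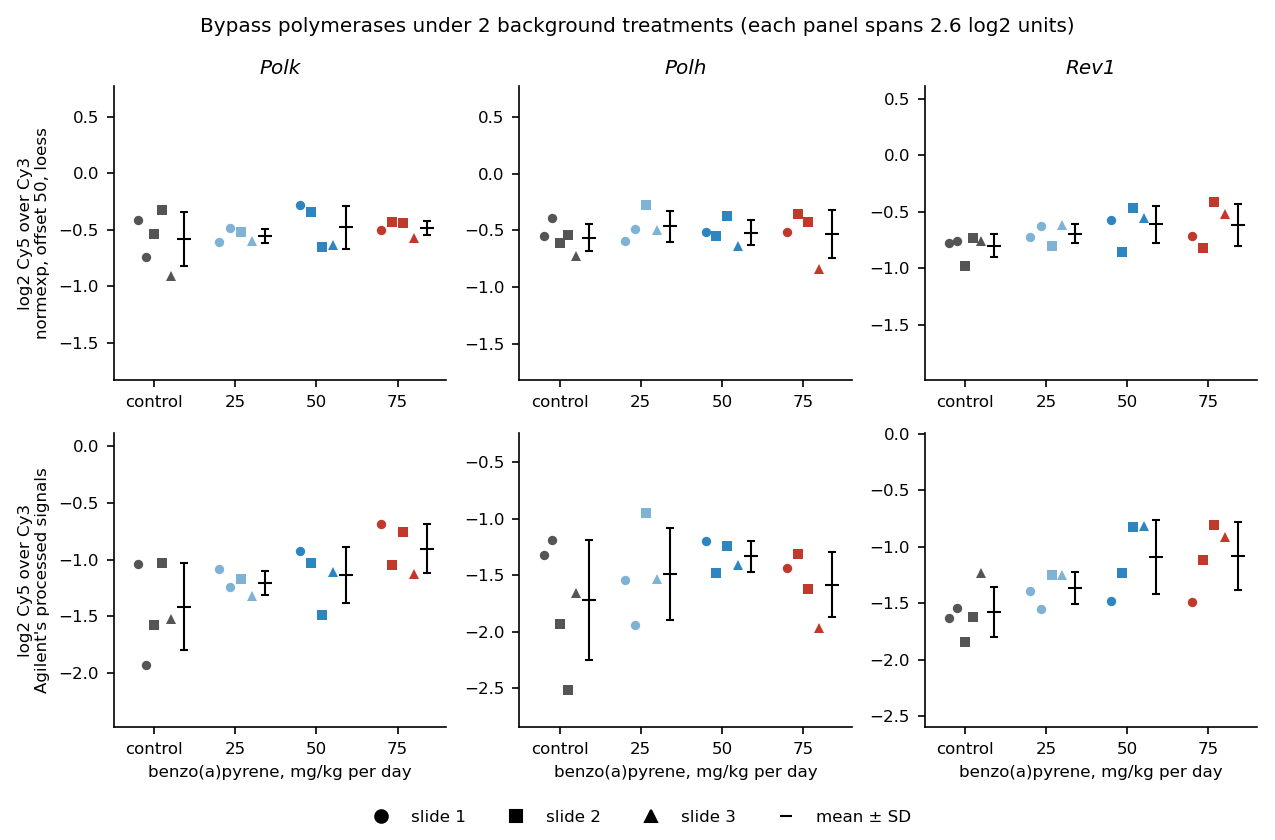
Log2 ratio of forestomach over reference RNA for the bypass polymerases on each array by dose in mg/kg per day, with normexp correction and an offset of 50 (top row) and from Agilent's processed signals (bottom row); each panel spans 2.6 log2 units and bars are mean ± SD. The dosed Polk and Rev1 arrays sit higher relative to control in the bottom row, where the differences at 75 mg/kg are 0.52 and 0.49, than in the top row, where they are 0.10 and 0.18.

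The promoters of these polymerases are shown because the AHR binds DNA at a short core that can be searched for, GCGTG, read on both strands as GCGTG or CACGC. Sequences are from RefSeq on GRCm38.p6, each running from 250 bases before the transcription start to 50 after it, on the strand of the gene, with matches in capitals. Rev1 has its window on the minus strand at chr1:38129617-38129916, and Polk has windows for 2 starts on the minus strand, the upstream one at chr13:96542530-96542829 and the downstream one at chr13:96519138-96519437.
Rev1: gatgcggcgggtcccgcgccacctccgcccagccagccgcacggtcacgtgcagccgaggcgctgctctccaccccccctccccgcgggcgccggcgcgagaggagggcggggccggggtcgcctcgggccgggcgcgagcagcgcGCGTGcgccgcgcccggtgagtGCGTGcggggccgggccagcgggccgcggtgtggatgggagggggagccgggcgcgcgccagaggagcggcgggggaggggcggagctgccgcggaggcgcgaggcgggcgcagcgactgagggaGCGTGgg
Polk, upstream start: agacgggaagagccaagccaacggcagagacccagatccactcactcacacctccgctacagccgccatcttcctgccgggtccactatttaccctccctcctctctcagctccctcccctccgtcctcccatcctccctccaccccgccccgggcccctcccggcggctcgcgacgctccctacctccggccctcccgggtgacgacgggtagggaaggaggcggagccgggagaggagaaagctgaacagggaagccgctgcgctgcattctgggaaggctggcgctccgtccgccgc
Polk, downstream start: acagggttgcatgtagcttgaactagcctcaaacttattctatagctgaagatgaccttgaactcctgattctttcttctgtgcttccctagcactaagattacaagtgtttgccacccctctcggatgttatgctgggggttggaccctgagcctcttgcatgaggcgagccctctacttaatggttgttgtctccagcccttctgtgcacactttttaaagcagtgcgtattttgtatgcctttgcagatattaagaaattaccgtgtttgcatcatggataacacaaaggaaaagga
The Rev1 window held 3 matches, beginning at bases -104, -82 and 44 relative to the start, and neither Polk window held any. The search for the 10 genes left out 1 chromosome by its settings, so a gene there could have no window. Promoter windows were found for 7 of the 10 genes (Xpa, Ercc1, Ercc2, Ercc5, Polk, Polh and Rev1). The core occurred in 4 of the 7, with 3 matches in Ercc2 and 1 each in Ercc5 and Polh. Of all 32851 promoter windows of this length, with no chromosome left out by that setting, 32.4% held it. A match is a description of these letters and was not tested as a binding site.

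Beyond the 10 genes, 57 other genes of the same pathways were listed, of which 54 were tested. At 75 mg/kg 0 of the 54 passed after adjustment and 2 had an unadjusted p under the threshold, where 1.1% and 10.1% of all genes did. Their median log2 difference was -0.02, beside -0.01 for all genes. The count after adjustment was also 0 of 54 at 25 mg/kg, at 50 mg/kg and along dose. Among the recognition partners, Rad23b, which stabilises XPC, had the largest difference, 0.41 ± 0.13, with an adjusted p of 0.206 at 75 mg/kg and 0.091 along dose. Its dimmer probe gave 0.11, and Rbx1, a subunit of the CUL4 ligase, had 0.18 from its brightest probe and 0.04 and -0.03 from its other 2. In transcription-coupled repair Ercc6, the CSB protein that acts on stalled RNA polymerase, had 0.25 ± 0.10 (adjusted p = 0.41) from a probe well above background on 5 of 17 arrays, and Hmgn1, a nucleosome-binding protein, had 0.06, with -0.13 from its dimmer probe. The other TFIIH genes had a median of -0.06, with Cdk7 at -0.22 and its cyclin Ccnh at -0.17.

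Of the genes for incision and single-strand binding, Ercc4, which encodes XPF, had -0.09 and Rpa2, a subunit of the single-strand binding protein, had -0.10. The gap-filling and ligation genes had a median of -0.02, between Pole3, a subunit of polymerase epsilon, at -0.23 and Lig3, a DNA ligase, at 0.24. The other genes of translesion synthesis and damage tolerance had a median of -0.01, between Ube2b at -0.21 and Ube2n at 0.24, both ubiquitin-conjugating enzymes that act on PCNA at stalled forks. The other Ube2n probe, nearly as bright, gave -0.13, and the other 2 Ube2b probes gave -0.07 and -0.09. These lists hold no gene past the threshold at 75 mg/kg.

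Targets of p53, the transcription factor activated by DNA damage, were read on the same arrays. Of 16 tested, 5 rose at 75 mg/kg and 0 fell, where 1.1% of all genes passed in either direction. The median log2 difference of the 16 was 0.39. Pmaip1, which encodes the cell death protein NOXA, was at -0.94 ± 0.19 at 75 mg/kg and -1.99 ± 0.29 in control (log2 ratio, SD), a difference of 1.06 ± 0.14 with an adjusted p of 0.00111. Its probe was well above background on 4 of 4 arrays at 75 mg/kg and on 1 of 5 in control, and the size of the difference was 1.66 with an offset of 16 and 3.34 from the processed signals. Trp53inp1, a p53 cofactor, rose by 0.83 ± 0.11 (adjusted p = 0.00169), and it had also risen at 50 mg/kg, by 0.72 (adjusted p = 0.0325), while its dimmer probe gave 0.21 at 75 mg/kg and the mean of both probes 0.52. Bbc3, which encodes PUMA, rose by 0.80 ± 0.13 (adjusted p = 0.00429). Aen, an exonuclease, rose by 0.48 ± 0.10 (adjusted p = 0.0349), and Bax, a cell death effector, by 0.39 ± 0.09 (adjusted p = 0.0491). The call for Aen was lost in 5 of 17 fits that each left out 1 array, with adjusted p up to 0.152, and that for Bax in 16 of 17, up to 0.171. Under the 11 other settings the call for Aen was lost in 3, with adjusted p up to 0.267, and that for Bax in 8, up to 0.37, where the value for Bax ran between 0.27 and 0.72 and that for Aen between 0.45 and 0.86. This list had been examined in the same data before and is no independent evidence. No test here compared it with the repair genes as a set.

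Among 7 genes of the AHR list tested, 0 passed after adjustment at 25, 50 or 75 mg/kg, 72 hours after the last dose. Before adjustment 2 of the 7 were under the threshold at 25 mg/kg, 2 of 7 at 50 mg/kg and 0 of 7 at 75 mg/kg. Of all genes 3.26%, 6.81% and 10.1% were under it at these doses, and 0.014%, 0.0468% and 1.1% passed after adjustment. Ahrr, the AHR repressor, at 75 mg/kg had a log2 difference of 0.35 ± 0.18 (adjusted p = 0.557) and Cyp1b1, which oxidises benzo(a)pyrene, had -0.27 ± 0.20 (adjusted p = 0.726). Among 10 proliferation genes 0 passed before or after adjustment at any dose, beside the shares of all genes given above for the AHR list. Birc5 (survivin) was at 0.39 ± 0.34 at 75 mg/kg and Cdk1, the mitotic kinase, at -0.32 ± 0.25. Dimmer probes that passed the filter gave -0.03 and 0.11 for Birc5 and 0.04 for Cdk1.

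**Figure D4:**
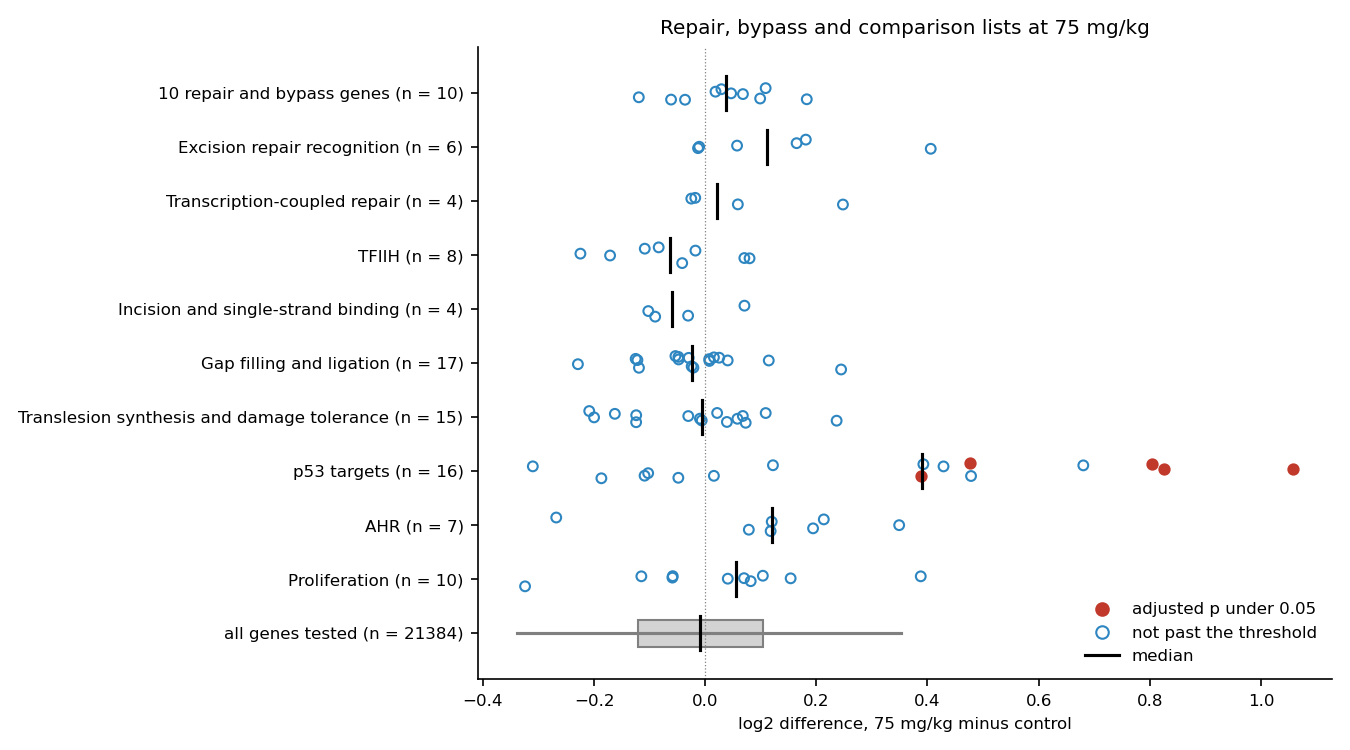
Log2 difference between 75 mg/kg and control for the 10 repair and bypass genes, the 6 lists of other pathway genes, p53 targets, AHR genes and proliferation genes, with 1 point per gene and the list median as a line; the grey box and line show the quartiles and the 5th to 95th percentiles of all 21384 genes. Filled points passed the adjusted threshold, and all 5 of them are p53 targets, while the 10 repair and bypass genes lie between -0.12 and 0.18.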

How the data were processed

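Gene expression in 17 forestomach samples was measured on 2-colour Agilent arrays. The authors deposited 1 scanner table per array, and per the file headers these came from Feature Extraction 10.7.3.1; the spot and background intensity used here (median signal, median local background) are the values in those deposited tables. The processed intensity in the same tables was background-subtracted and dye-normalized by Feature Extraction per the file headers. The deposited series table holds log2 values, and their scale is not given in the sources used here. Compared array by array it followed loess-normalized log2 ratios without background correction, with correlations of 0.998 to 0.999, slopes of 0.995 to 0.998 and column medians of -0.03 to -0.02; 0 of its columns lacked a sample.

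From the intensities, background was corrected by normexp with an offset of 50 and loess was run within arrays, giving control spots weight 0. Flagged spots took part in the loess and were left out afterwards, when spots were averaged by probe. The filter kept 27577 probes whose Cy5 signal was well above background on 4 or more arrays, and a gene was its brightest probe (21384 genes). Of 55681 probes 26413 took a symbol from RefSeq's gene table (GRCm38.p6) by transcript and 29268 had no symbol there. Probes with no symbol were grouped by the name in the scanner tables, so 13855 of the 21384 entries have a RefSeq symbol. All 17 arrays entered 1 fit of 4 group means in limma 3.58.1 (R 4.3.3), two-sided, with Benjamini-Hochberg adjustment over all genes and a threshold of 0.05; a slope on dose and the contrast of 75 with 25 mg/kg were fitted beside it. The fits were tested on simulated data. The replicate numbers of the groups do not overlap, so no pairing was used. Alternatives were slide as a block, other background corrections and normalizations, Agilent's processed signals, Cy5 alone, the series table, no filter on dim probes, the mean of a gene's probes, the compared groups only, and leaving out each array. Cy5 alone means the Cy5 value after loess against Cy3 and Aquantile normalization between arrays, so it still depends on the reference channel. The plan named the mean signal as an option, which the tables used here do not hold.

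The members and gene lists were chosen with earlier results of these data known. All 10 members are named with every probe. Of the other lists, genes that passed at 75 mg/kg are named (at most 8 a list) or, where none passed, the 2 with the largest absolute difference. Coordinates are given for promoters alone, on GRCm38.p6, since the arrays were annotated on an older build.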

Additional observations from a re-analysis of the deposited data

Results flagged for a closer look

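In 40 combinations of a gene with a group, 4 had 1 array set apart from the others of its group by Dixon's test, a test that flags about 1 group in 20 by chance. Ercc2 in replicate 6 at 25 mg/kg had a log2 ratio of -0.9168, and the nearest of the other 3 arrays was at -0.4753. Ercc2 in control replicate 1 was at -0.7477, with the nearest control at -0.4297; both arrays were on slide 1. Xpc in control replicate 1 was at -0.0641, with the nearest control at 0.1876. Rev1 in control replicate 3 was at -0.9786, with the nearest control at -0.7816. Without that array the Rev1 difference at 75 mg/kg was 0.14, against 0.18 with all arrays, and adjusted p was over the threshold in both.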

How the results depend on the processing

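No paired analysis was possible because the groups share no replicate number. The counts of members at each dose, and of other pathway genes at 75 mg/kg, past the threshold stayed at 0 under all 11 other settings and in all 17 fits that left out 1 array. The smallest adjusted p of a member's difference from control at a dose was 0.286 over the settings and 0.436 over the fits. Of the 11 settings 3 (Aquantile, no filter, only the compared groups) could not move a member's difference, and the mean of a gene's probes moved Xpa only. Of the 213 member differences that moved, 29 changed sign, with sizes up to 0.25. With slide as a block Xpa was -0.000154 at 25 mg/kg and Ercc1 was -0.010 at 75 mg/kg. Without background correction Ddb2 was 0.0067 at 50 mg/kg and Polh -0.0060 at 75 mg/kg. With arrays only centred on medians, which shifted the median of all genes by 0.16, 0.08 and 0.19 at 25, 50 and 75 mg/kg, Xpc was 0.092 and 0.21 at 25 and 75 mg/kg, Ddb2 was 0.058, 0.078 and 0.12 at 25, 50 and 75 mg/kg, Ercc2 was 0.10, 0.0030 and 0.25 at these doses, and Xpa was 0.12 and Ercc1 0.011 at 50 mg/kg. From the processed signals Xpa was -0.036 and Ercc3 -0.039 at 25 mg/kg and Ercc1 was 0.0013 at 50 mg/kg. From Cy5 alone, read after normalization with Cy3, Ercc1 was -0.020 and Polh -0.026 at 75 mg/kg. On the same values Ercc3 was -0.047 and Ercc5 0.10 at 50 mg/kg, and Ercc3 was -0.0010 at 25 mg/kg. From the series table Ercc1 was -0.0039 at 75 mg/kg, Ddb2 was 0.0027 and Ercc3 -0.012 at 50 mg/kg, and Xpa was -0.0087, Ercc1 -0.026 and Ercc3 -0.023 at 25 mg/kg. From the mean of both probes Xpa was -0.020 at 75 mg/kg. The cause of these sign changes was not tested.

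Leaving out 1 array at a time moved 270 member differences, since only control arrays and those of a dose bear on that dose, and turned the sign of 35. At 75 mg/kg the ranges that cross 0 were -0.092 to 0.012 for Xpc, -0.088 to 0.094 for Ercc1, -0.17 to 0.11 for Ercc2, -0.088 to 0.13 for Ercc5 and -0.030 to 0.13 for Polh. At 50 mg/kg they were -0.076 to 0.035 for Ddb2, -0.15 to 0.0010 for Xpa, -0.054 to 0.052 for Ercc3, -0.20 to 0.000665 for Ercc5 and -0.0033 to 0.088 for Polh. At 25 mg/kg they were -0.14 to 0.0053 for Ddb2, -0.040 to 0.091 for Xpa, -0.12 to 0.12 for Ercc1, -0.18 to 0.013 for Ercc2, -0.013 to 0.070 for Ercc3 and -0.047 to 0.098 for Polk.

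The number of all genes past the threshold depended more on the processing. With slide as a block 1, 28 and 424 genes passed at 25, 50 and 75 mg/kg, 549 along dose and 32 between 75 and 25 mg/kg, against 3, 10, 236, 288 and 13 as reported. Median centring gave 0, 1, 145, 172 and 0. Of the 75 mg/kg calls with median centring 97.9% were higher, against 80.9% as reported. Fitting only the compared groups gave 155 at 75 mg/kg and 0 between 75 and 25 mg/kg, a count that was 0 from the processed signals too. At 50 mg/kg 6 genes passed with no filter or with mean probes. At 25 mg/kg 1 gene passed from the processed signals, from Cy5 alone or with no filter. Leaving out 1 array gave 0 to 2 genes at 25 mg/kg, 2 to 32 at 50 mg/kg, 119 to 289 at 75 mg/kg, 192 to 403 along dose and 0 to 37 between 75 and 25 mg/kg; the last was 0 without 75 mg/kg replicate 17 and 37 without 75 mg/kg replicate 19. Spots near background limit Polh and the dimmer Polk probe most.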
